A study of Rattus norvegicus with 38 samples.

Results

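The P10 buccal swabs of cohort 1 compared 5 pups raised in LBN cages with 6 pups raised in standard cages, by DNA methylation at 3417 differentially methylated regions (DMRs). The members were the 11 P10 samples of cohort 1 among the 38 samples of the series: LBN2, LBN3, LBN4, LBN9 and LBN12 in the LBN group and C3, C4, C6, C7, C9 and C12 in the control group. They were taken by cohort, age and cage as the labels give them, and no measured value entered that rule. The comparison itself was chosen with earlier results of these data known. All were Sprague Dawley rats, swabbed in both cheeks on postnatal day 2 (P2) before the cage was assigned and again on postnatal day 10 (P10). LBN stands for limited bedding and nesting: from P2 to P9 the dam and pups lived above a mesh floor with sparse bedding and a piece of paper towel as nest material, while control dams and pups had ample cob bedding. Pups of several litters, both sexes, had been mixed and given at random to the dams, so the pups of a group may share a dam, and dam, cage and sex are not in the labels. The p values below measure the spread between pups and treat them as independent.

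Cytosine methylation at CpG dinucleotides is copied at cell division and differs between cell types, so a level measured in a tissue is an average over its cells. A cheek swab holds shed epithelial cells and white blood cells, and the share of each was not measured. In such a bulk sample, a change in methylation within a cell type and a change in the mix of cells cannot be told apart. CpGs near the start sites of many housekeeping and developmental genes lie in CpG-dense stretches that are usually little methylated, and methylation at promoters is known to go with low transcription. Transcription was not measured here.

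The value of a DMR is its methylation level in percent, methylated reads as a share of the reads at its CpGs, from reduced representation bisulfite sequencing (RRBS), in which MspI cuts the DNA at CCGG and bisulfite converts unmethylated cytosines. Read counts are not given with the percentages, so the depth is unknown and no interval is given for a single value. A DMR was kept by the study where its level had changed between P2 and P10 within pups of the same experiment, P10 samples included, so the 3417 DMRs are selected and are not a sample of the genome. Of them, 2510 were a single CpG position and 907 were longer. For tests, levels were put on a log-odds scale, log2((percent + 1)/(100 − percent + 1)), on which +1 is a doubling of the odds of methylation, and were compared by limma with Benjamini-Hochberg adjustment over all 3417 DMRs. Gene names and features (promoter, exon, intron, transcription termination site TTS, or intergenic) come from the study's own assignment, which named 426 genes at 458 DMRs chosen on these same pups. Names were available only for DMRs that the study had picked, so a DMR without a name here may still lie at a gene. Positions are on rn6.

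Methylation over all DMRs was higher in the LBN pups at P10. The mean level was 51.9% in LBN2, 51.3% in LBN3, 52.4% in LBN4, 52.9% in LBN9 and 55.1% in LBN12. In the 6 controls it ran from 48.8% through a median of 50.2% to 51.5%. The group means were 52.7% ± 1.47 (SD, n = 5) and 50.1% ± 0.985 (SD, n = 6), a difference of 2.65 percentage points (two-sided exact permutation test, p = 0.00649). Only LBN3, the lowest LBN pup, lay below the highest control, C4. With each pup left out in turn the difference stayed between 2.04 and 3.002 percentage points, and without C6 and C9 together it was 2.12 (exact permutation p = 0.0317).

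The median level separated the groups. It was 54.7% in LBN2, 53.5% in LBN3, 54.3% in LBN4, 56.1% in LBN9 and 62.4% in LBN12, and in the controls it ran from 47.3% through 50.1% to 53.0%. No control reached the lowest LBN pup. The difference was 6.36 percentage points, with an exact permutation p of 0.00433, the smallest that 5 against 6 pups can give. DMRs under 20% made up 8.55% to 15.2% of all DMRs in the LBN pups and 8.31% to 10.4% in the controls, and DMRs over 80% made up 8.02% to 18.5% and 6.79% to 12.99%. LBN12, LBN9 and LBN2 had the largest shares of both kinds among the LBN pups.

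The P2 swabs of the same 11 pups, taken before the cages were assigned, served as the background. Their mean level was 51.7% ± 1.64 in the later LBN pups and 51.7% ± 1.57 in the later controls, a difference of 0.0378 percentage points (exact permutation p = 0.972). In cohort 2 at P10, in pups that the cohort 1 comparison did not use, the mean level was 42.2% ± 3.19 in LBN and 42.7% ± 1.82 in controls (SD, n = 4 each), a difference of −0.538 percentage points (exact permutation p = 0.771). The difference in cohort 1 exceeded that in cohort 2 by 3.19 percentage points, and this gap did not pass an exact permutation of labels within cohort over 32340 arrangements (p = 0.12, a test added after the values were seen).

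The 11 samples differed among themselves mainly along 1 axis. In a principal component analysis of the log-odds levels the first component held 53.9% of the variance. Its scores, oriented with LBN above controls, were 26.9 in LBN2, 3.76 in LBN3, 7.44 in LBN4, 37.5 in LBN9 and 44.6 in LBN12. The controls scored −12.1 for C3, 19.9 for C4, −57.8 for C6, −10.0 for C7, −51.5 for C9 and −8.58 for C12. C6 and C9 stood far below every other sample and correlated with each other at r = 0.919 across DMRs, while C4 lay among the LBN pups. The group means were 24.0 ± 18.0 and −20.0 ± 29.4 (SD), a difference of 44.1 (exact permutation p = 0.0238), which did not pass adjustment over the 4 components compared (adjusted p = 0.0952). Without LBN12 the difference was 38.2 (p = 0.0714), and without C6 and C9 together it was 31.6 (p = 0.0476, exact permutation).

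DMR by DMR, 409 of the 3417 DMRs (12.0%) differed at P10 at a limma adjusted p under 0.05. Of these, 257 (7.52%) were higher and 152 (4.45%) were lower in LBN, and 1299 DMRs had an unadjusted p under 0.05. The groups did not overlap at 164 DMRs (4.80%), 93 higher (2.72%) and 71 lower (2.08%) in LBN, and 72 and 55 of these were also past the adjusted p. The smallest adjusted p was 0.0364, and the calls depended on single pups. The count was 0 without C3, C6, C9, LBN2, LBN9 or LBN12, with 1226, 961, 933, 1122, 984 and 847 DMRs left at an unadjusted p under 0.05. It was 192 without C7, 91 without C12, 456 without LBN4, 561 without LBN3 and 1151 without C4, the control that lay among the LBN pups. Without C6 and C9 together it was 0 in limma, with 606 at an unadjusted p under 0.05. Every call named below is therefore lost without any of those 6 pups, and the levels of each pup are given so that the size of the difference can be read apart from the call.

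**Figure D1:**
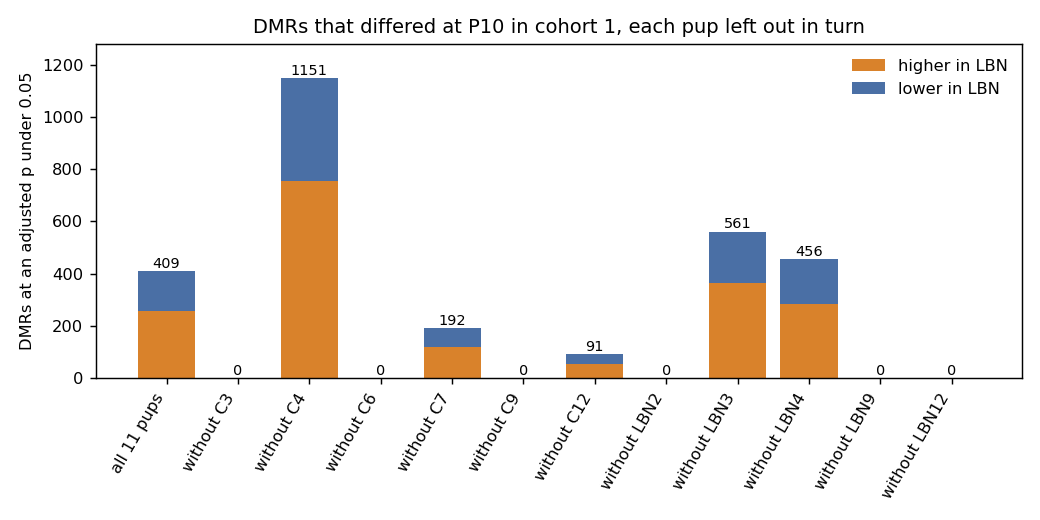
The vertical axis gives the number of DMRs at a limma adjusted p under 0.05 for LBN against control at P10 in cohort 1, stacked by direction, with all 11 pups and with each pup left out. The count of 409 falls to 0 without any of 6 pups and rises to 1151 without C4.

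The split by direction depended on the scale. The median log-odds difference over all 3417 DMRs was +0.17, so a DMR in the middle of the table had a positive difference. When each sample was centred on its own median level, 435 DMRs differed, 52 higher and 383 lower. All 152 DMRs that were lower without centring were among the 383, and 52 of the 257 higher ones kept their call. Centring takes the same amount from every difference, and it moved the median difference past 0, to −0.2. It could not turn a lower DMR into a higher one, so the kept direction of the lower DMRs adds no support. The remaining higher DMRs passed the test in level but not after this shift.

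At the DMRs that differed, pups spread widely within each group. The mean level of the 257 higher DMRs was 66.8% in LBN2, 59.1% in LBN3, 60.5% in LBN4, 69.3% in LBN9 and 74.5% in LBN12, and ran from 33.5% in C6 through a median of 47.6% to 57.4% in C4. The mean level of the 152 lower DMRs was 27.7%, 30.9%, 32.9%, 26.7% and 20.2% in the same LBN pups, and ran from 36.9% in C4 through 43.1% to 53.9% in C6. C4 was the control nearest to the LBN pups in both sets and C6 the farthest. These sets were chosen by this contrast, so the gap at P10 is a description.

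The same DMRs were read in samples that did not enter the choice. At P2 of the same pups, the 257 DMRs ranged from 35.2% to 66.7% in the later LBN pups and from 37.2% to 59.1% in the later controls, and the groups overlapped. The later LBN mean was above the later control mean at 205 of the 257 (79.8%) and below it at 119 of the 152 (78.3%), where 49.9% of all DMRs were above and 50.1% below. In cohort 2 at P10, LBN was above control at 50 of the 257 (19.5%) and below it at 32 of the 152 (21.1%), with median differences of −3.25 and +3.41 percentage points, where 44.6% of all DMRs were above and 55.4% below. In cohort 2 at P2, before the cages were assigned, the shares were 94.6% and 93.4%, with median differences of 10.2 and −12.5 percentage points, where 59.4% of all DMRs were above and 40.6% below. DMRs of a sample move together, as the first component shows, so these shares carry no test. At P2 of cohort 2, where no cage had been assigned, the group means thus lay apart in the chosen direction at most of these DMRs.

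**Figure D2:**
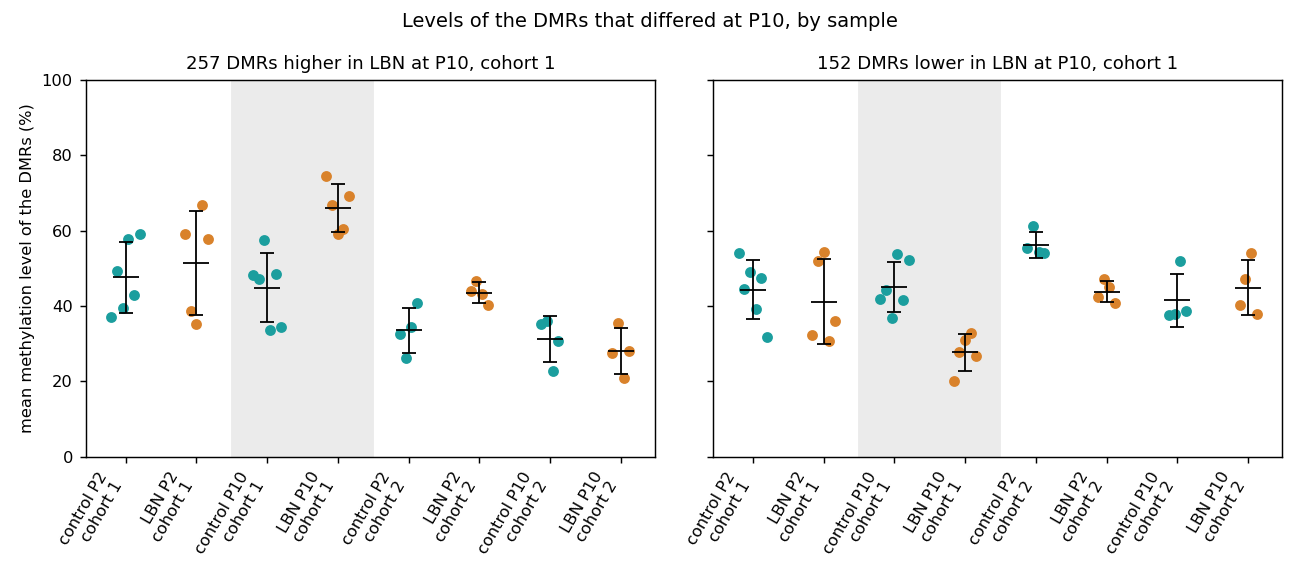
Each point is the mean methylation level of a sample (percent) over the 257 DMRs higher (left) or the 152 lower (right) in LBN at P10 in cohort 1, by group; bars are the group mean and SD, and the shaded groups are those that chose the DMRs. The LBN and control samples of cohort 1 separate at P10 and overlap at P2, while in cohort 2 the groups overlap at P10 and, at P2 before any cage was assigned, lie apart for the lower DMRs (40.9% to 47.1% in LBN and 54.0% to 61.3% in controls) and overlap slightly for the higher ones.

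Tested DMR by DMR, no DMR differed between LBN and control at P2 in cohort 1 (limma, 59 at an unadjusted p under 0.05) or at P10 in cohort 2 (limma, 45 at an unadjusted p under 0.05). The difference at P10 did not itself differ between the cohorts at any DMR at an adjusted p under 0.05 (limma interaction of cohort and group), with 808 DMRs at an unadjusted p under 0.05 and a smallest adjusted p of 0.154. A DMR past the threshold in cohort 1 is thus not shown to behave differently in cohort 2.

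The called DMRs were spread over levels and features, set here beside 7.52% higher and 4.45% lower among all 3417 DMRs. Among DMRs with a control mean of 45% to 60%, 104 of 924 (11.3%) were higher and 33 (3.57%) lower in LBN. Among those at 75% or more, 6 of 458 (1.31%) were higher and 17 (3.71%) lower. Among those under 25%, 20 of 387 (5.17%) were higher and 21 (5.43%) lower. The level used is the control mean at P10, an arm of the same contrast, so these shares follow in part from that choice. DMRs with a gene name were called at 77 of 458 (16.8%), 26 higher (5.68%) and 51 lower (11.1%). The study had picked these in part for separating the groups, so their shares follow in part from that choice. Features are given only for DMRs with a gene name. Those in exons counted 5 higher and 19 lower of 93, and those in introns 15 higher and 16 lower of 202. On chromosome X, 0 of 10 DMRs were called, where 12.0% of all DMRs were. Of 110 pairs of neighbouring DMRs within 1000 bp, both were called in 5 pairs, each time in the same direction: at Zfpm1, Tnxb, S1pr5, Skor1 and Speg. In 29 other pairs only a single DMR of the pair was called.

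Among the gene-named DMRs higher in LBN, the smallest p belonged to an intronic DMR of Net1, a guanine nucleotide exchange factor (chr17:70016933-70016934). Its level was 59.1% in LBN2, 71.4% in LBN3, 71.8% in LBN4, 79.0% in LBN9 and 74.6% in LBN12, and ran from 21.7% through 42.6% to 56.5% in the controls. All LBN pups lay above all controls, and the log-odds difference was 1.79 (standard error 0.39, limma adjusted p = 0.0364). At P2 the DMR was at 69.2% ± 6.99 in the later controls and 70.5% ± 12.0 in the later LBN pups. The LBN pups at P10 were thus near the P2 level of both groups, and the controls were below it. Here and below, P2 levels stand beside P10 levels as values, and no test of age was made.

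Calml3 encodes a calmodulin-like protein of epithelial cells, and its DMR lay in the promoter (chr17:70071395-70071396). The level was 77.8% in LBN2, 67.7% in LBN3, 78.2% in LBN4, 87.1% in LBN9 and 89.8% in LBN12. In controls it ran from 34.2% through 56.3% to 65.6%, below every LBN pup. The log-odds difference was 1.96 (standard error 0.43, limma adjusted p = 0.0364). At P2 the level was 80.6% ± 8.20 in the later controls and 77.4% ± 11.4 in the later LBN pups, again near the LBN level at P10. In cohort 2 at P10 it was 23.5% ± 7.44 in controls and 16.7% ± 7.82 in LBN, a log-odds difference 2.60 smaller than in cohort 1 (limma interaction adjusted p = 0.154).

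Of the 4 called DMRs that the study's lists place at a promoter, those of Calml3 and Lekr1 were higher and those of Creld1 and Taok3 lower in LBN. Taok3, a kinase of stress-activated MAP kinase pathways, was at 24.8% in LBN and 40.9% in controls (chr12:45182925-45182926, groups without overlap). RefSeq promoter sequences, 250 bases before to 50 after the start on GRCr8, were found for Calml3 and Taok3. They are shown because a called DMR was assigned to the promoter of each gene and because they differ in their number of CG. Capitals mark CG, searched as these letters, which read the same on the other strand. The Calml3 promoter (chr17:71331276-71331575, plus strand) holds 5 CG and 0 CCGG, and the Taok3 promoter (chr12:45134390-45134689, minus strand) holds 29 CG and 1 CCGG. Of 33469 RefSeq promoters, 94.5% hold a CG, 51.4% hold CCGG and the median is 7 CG, and 38.0% hold fewer CG than Calml3 and 88.5% fewer than Taok3. The DMR positions are on rn6, and whether either DMR lies within the window shown was not determined.
Calml3: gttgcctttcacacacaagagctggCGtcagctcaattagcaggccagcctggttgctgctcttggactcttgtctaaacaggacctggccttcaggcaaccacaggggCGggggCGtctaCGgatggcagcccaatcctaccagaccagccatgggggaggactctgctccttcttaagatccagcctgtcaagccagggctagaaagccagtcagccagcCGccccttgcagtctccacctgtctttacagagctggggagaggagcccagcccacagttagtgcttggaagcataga
Taok3: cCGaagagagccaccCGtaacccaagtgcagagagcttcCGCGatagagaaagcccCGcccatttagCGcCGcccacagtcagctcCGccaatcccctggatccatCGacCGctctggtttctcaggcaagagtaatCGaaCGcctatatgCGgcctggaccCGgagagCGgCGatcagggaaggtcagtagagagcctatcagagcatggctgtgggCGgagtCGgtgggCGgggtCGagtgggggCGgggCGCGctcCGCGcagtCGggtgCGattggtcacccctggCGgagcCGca

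Cbs, which makes cystathionine from homocysteine, was higher in LBN at an intronic DMR (chr20:10381454-10381455). Its level was 61.7%, 53.2%, 61.0%, 66.1% and 77.7% in LBN2, LBN3, LBN4, LBN9 and LBN12, and 26.2% through 39.1% to 45.7% in the controls. The groups did not overlap, and the log-odds difference was 1.62 (standard error 0.36, limma adjusted p = 0.0364). At P2 of cohort 1 both groups were at 58.1% (SD 5.76 in controls and 12.6 in LBN). Llgl1, a scaffold of cell polarity, had a similar order at an exonic DMR (chr10:46948753-46948759). It was at 83.3%, 55.9%, 72.5%, 83.6% and 85.5% in the same LBN pups and 38.5% through 44.3% to 72.9% in controls, and the groups overlapped (difference 1.80, standard error 0.44, limma adjusted p = 0.0365). At P2 it was at 84.8% ± 5.23 in controls and 79.1% ± 4.84 in LBN.

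Other higher DMRs were near their P2 level in controls and above it in LBN. Pik3cd, the delta catalytic subunit of PI3-kinase in leukocytes, was at 52.7%, 45.5%, 45.4%, 45.6% and 73.9% in the LBN pups and 15.9% through 27.5% to 36.9% in controls at an intergenic DMR (chr5:166629752-166629792). LBN12 stood well above the other LBN pups there. At P2 it was at 28.3% ± 11.7 in controls and 21.4% ± 8.67 in LBN. Bmf, a BH3-only activator of cell death, was at 41.7%, 44.2%, 34.4%, 47.1% and 72.5% in LBN and 13.5% through 24.0% to 34.2% in controls at an intronic DMR (chr3:110311308-110311309). Dusp10, a phosphatase of p38 and JNK, was at 55.0%, 43.0%, 51.9%, 53.9% and 74.2% in LBN and 21.6% through 34.7% to 37.8% in controls at its TTS (chr13:104322042-104322043). At P2 of cohort 1 Bmf was at 25.8% ± 9.89 in controls and 26.8% ± 9.51 in LBN. Dusp10 was at 29.6% ± 12.0 and 34.7% ± 23.1. At these 3 DMRs the P10 groups did not overlap and LBN12 was the highest pup.

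Zfpm1, the GATA cofactor FOG1, had a pair of neighbouring DMRs 251 bp apart that were both higher. At the exonic one (chr19:55149365-55149366) the LBN pups were at 43.2%, 36.5%, 34.4%, 50% and 72.4% and the controls ran from 14.8% through 22.1% to 32.4%. The neighbour, without a gene name of its own, was at 43.0% in LBN and 20.7% in controls, with log-odds differences of 1.54 and, at the exon, 1.58. Neither DMR had overlapping groups.

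The remaining DMRs of the 10 with the smallest p were at low levels. Pdcd6ip, the ESCRT adaptor ALIX, was at 10.7%, 22.5%, 11.4%, 4.49% and 20.2% in LBN and 2.27% through 4.04% to 5.88% in controls (intron, chr8:121972120-121972121). LBN9 lay among the controls. Glipr2, a Golgi-associated protein, was at 16.5%, 29.2%, 22.4%, 18.9% and 41.2% in LBN and 7.73% through 9.87% to 15% in controls (intron, chr5:59438533-59438534), without overlap. Differences of the 10 DMRs ran from 1.40 at Dusp10 to 1.96 at Calml3 on the log-odds scale, with limma adjusted p values from 0.0364 to 0.0365.

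**Figure D3:**
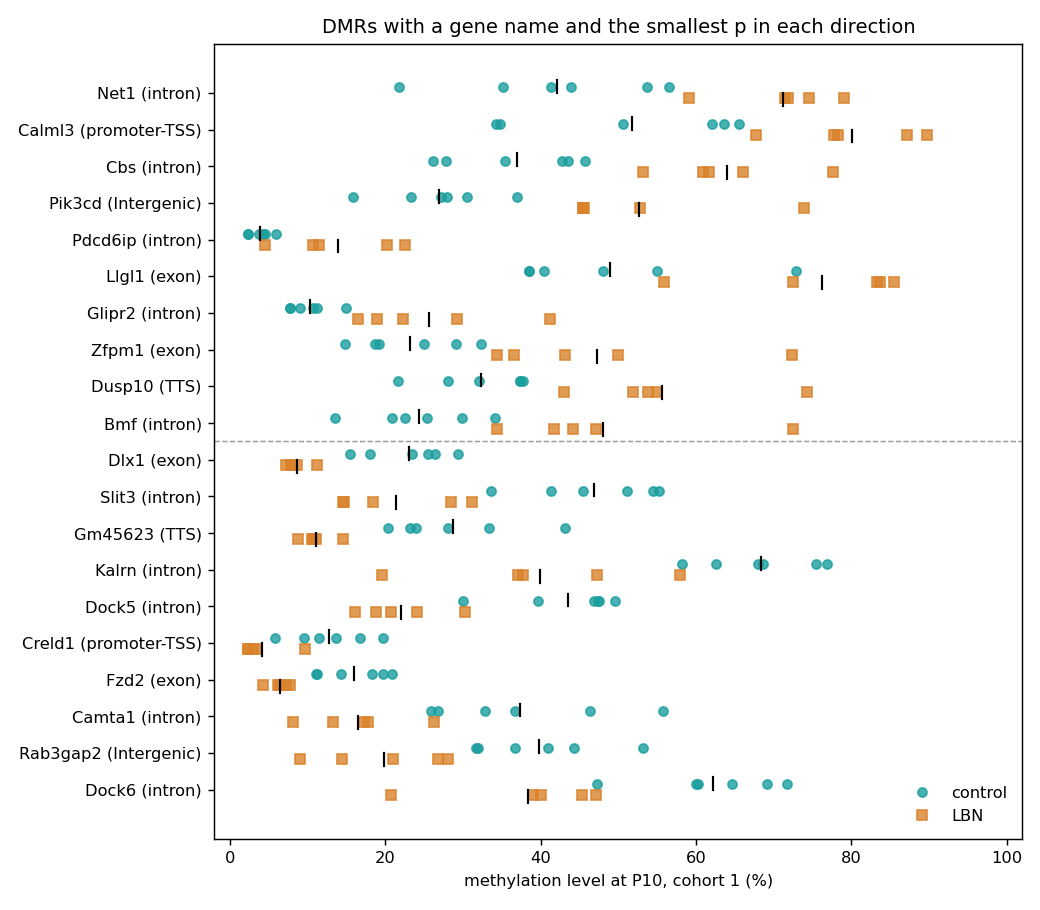
Each row is a gene-named DMR with its feature, 10 higher in LBN above the dashed line and 10 lower below it; the horizontal axis is the methylation level at P10 in cohort 1 (percent), circles are the 6 controls, squares the 5 LBN pups and black ticks the group means. Dlx1, Gm45623 and Fzd2 are tightly grouped near 10% or less in LBN, and LBN12 extends the upper range at Pik3cd, Zfpm1, Dusp10 and Bmf.

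The smallest p of all DMRs was at a lower DMR without a gene name, chr10:101563903-101563904. It was at 63.3% in LBN and 87.4% in controls, without overlap. The gene-named lower DMRs were led by Dlx1, a homeobox factor of forebrain and craniofacial development, at an exonic CpG (chr3:58167965-58167966). Its level was 7.84% in LBN2, 7.27% in LBN3, 11.2% in LBN4, 8.03% in LBN9 and 8.63% in LBN12. The controls ran from 15.4% through 24.5% to 29.4%, all above the LBN pups. The log-odds difference was −1.55 (standard error 0.33, limma adjusted p = 0.0364). At P2 the level was 8.65% ± 4.37 in the later controls and 7.79% ± 4.84 in the later LBN pups, and in cohort 2 at P10 it was 18.8% ± 6.17 in controls and 24.8% ± 9.74 in LBN. In cohort 2 at P2 it was at 15.8% ± 2.20 and 15.7% ± 1.85. In cohort 1 the LBN pups at P10 were thus near the P2 level of that cohort and the controls above it.

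Fzd2, a receptor of Wnt ligands, showed the same order at an exonic DMR (chr10:90551877-90551939). It was at 7.72%, 6.23%, 7.28%, 4.30% and 6.44% in LBN2, LBN3, LBN4, LBN9 and LBN12 and 11.03% through 16.3% to 20.9% in controls, without overlap (difference −1.33, standard error 0.33, limma adjusted p = 0.0365). At P2 it was at 5.79% ± 1.66 in controls and 7.18% ± 1.72 in LBN, and in cohort 2 at 8.45% ± 1.07 and 8.52% ± 1.33 at P2 and 19.4% ± 4.87 and 17.0% ± 3.61 at P10. Gm45623, a gene model named in the assignment, was at 10.7%, 11.1%, 14.5%, 10.5% and 8.77% in LBN and 20.4% through 26.1% to 43.2% in controls at its TTS (chr17:8299746-8299747). Creld1, a membrane protein linked to heart septation, was at 3.39%, 2.38%, 9.63%, 2.94% and 2.40% in LBN and 5.83% through 12.5% to 19.7% in controls at its promoter (chr4:145439215-145439216), where LBN4 lay among the controls.

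A further group of lower DMRs was near its P2 level in controls and below it in LBN. Slit3, a secreted ligand of ROBO receptors, was at 14.5%, 28.4%, 31.1%, 18.4% and 14.7% in LBN and 33.7% through 48.3% to 55.2% in controls (intron, chr10:20346981-20347016). At P2 it was at 49.0% ± 9.35 in controls and 42.8% ± 16.7 in LBN. Kalrn, a guanine nucleotide exchange factor of dendritic spines, was at 57.9%, 47.2%, 37.8%, 37.1% and 19.6% in LBN and 58.2% through 68.3% to 76.9% in controls (intron, chr11:69549968-69550006). Neither DMR had overlapping groups, although LBN2 lay within 1 percentage point of the lowest control at Kalrn. Exchange factors of the DOCK family were also lower, Dock6 at 38.4% ± 10.5 in LBN and 62.2% ± 8.70 in controls (intron, chr8:22838373-22838443) and Dock5 at 22.0% ± 5.47 and 43.5% ± 7.45 (intron, chr15:44555449-44555450). Camta1, a calmodulin-binding transcription activator, was at 16.6% ± 6.66 and 37.4% ± 11.7 (intron, chr5:168450853-168450854), and Rab3gap2, a subunit of the Rab3 GTPase-activating complex, at 19.9% ± 8.10 and 39.8% ± 8.24 (intergenic, chr13:103139575-103139615).

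In cohort 2 the controls at Kalrn, Dock6 and Camta1 were near the control level of cohort 1. Kalrn was at 68.2% ± 8.13 in controls and 72.9% ± 13.7 in LBN at P10, Dock6 at 61.0% ± 9.44 and 65.6% ± 11.2, and Camta1 at 33.99% ± 15.5 and 40.2% ± 15.8. Slit3 was at 26.3% ± 9.77 and 27.5% ± 11.5, and Dock5 at 25.4% ± 13.4 and 26.0% ± 9.62, both with the controls of cohort 2 near the LBN level of cohort 1. At P2 of cohort 2, before any cage was assigned, each of these DMRs was already lower in the later LBN pups. The later controls and LBN pups were at 91.2% ± 3.11 and 78.8% ± 5.12 at Kalrn, and 82.5% ± 4.22 and 68.1% ± 5.05 at Dock6. Camta1 was at 53.8% ± 6.88 and 37.5% ± 9.95, Slit3 at 63.5% ± 7.18 and 39.9% ± 3.64, and Dock5 at 58.3% ± 5.28 and 34.7% ± 7.94. Of the higher DMRs, Pik3cd was already higher there in the later LBN pups. It was at 7.78% ± 1.89 in controls and 25.5% ± 0.741 in LBN. The LBN mean was also above the control mean at Zfpm1, Bmf, Dusp10, Cbs and Glipr2. Control and LBN means were 10.5% and 21.8% at Zfpm1, 15.85% and 22.7% at Bmf, and 19.2% and 35.5% at Dusp10. They were 38.6% and 56.1% at Cbs, and 8.09% and 12.8% at Glipr2. Net1 was close, at 56.9% ± 18.9 and 57.35% ± 5.65, as was Llgl1, with means of 70.4% and 72.8%. Calml3 went the other way, at 54.1% ± 17.5 and 44.7% ± 11.8, as did Pdcd6ip, with means of 13.1% and 8.34%. These P2 values of cohort 2 were not tested by DMR. Interaction adjusted p values of the named DMRs at P10 were 0.154 or more in limma.

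**Figure D4:**
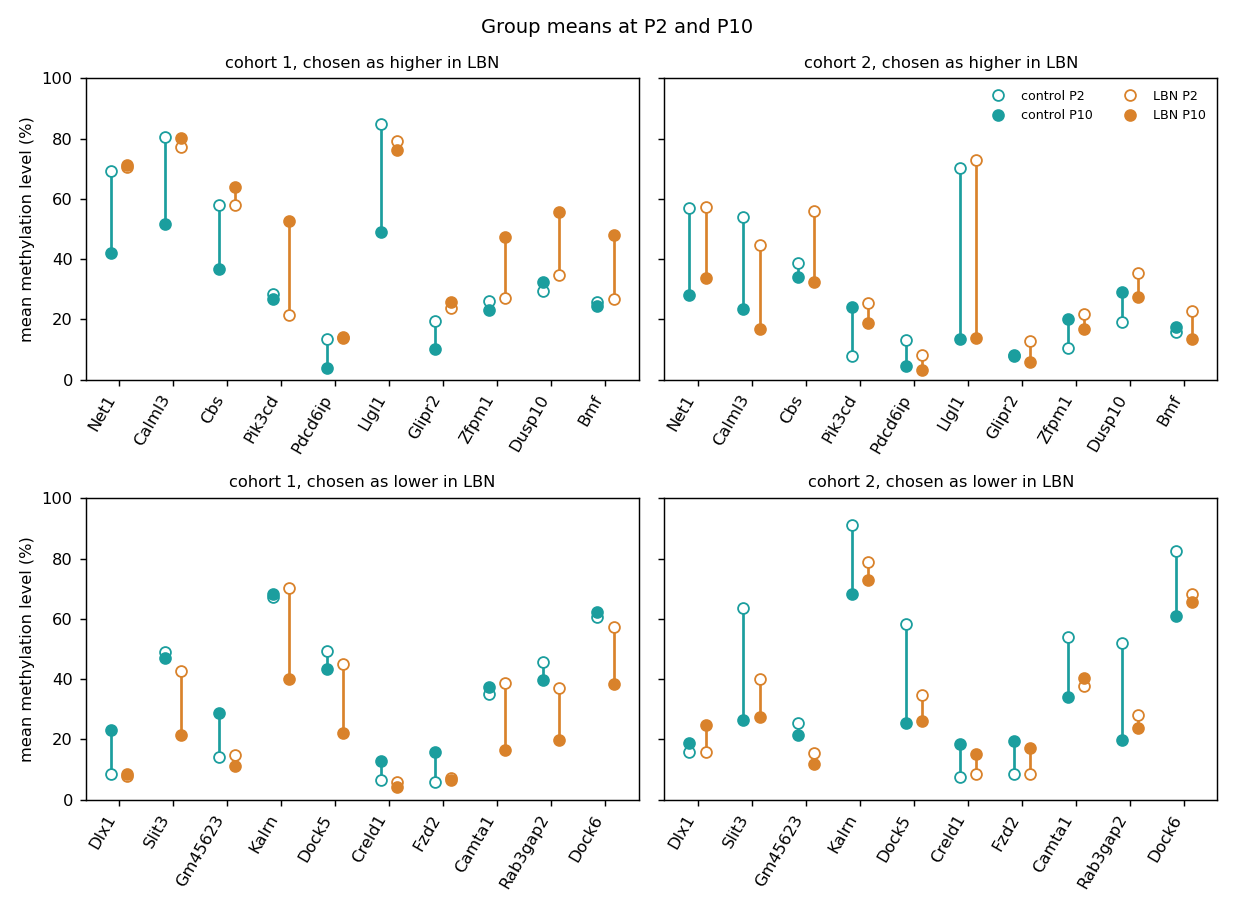
Group mean methylation levels (percent) of the 20 gene-named DMRs with the smallest p at P2 (open circles) and P10 (filled circles), controls and LBN side by side, in cohort 1 (left) and cohort 2 (right). In cohort 1 the control circles move between P2 and P10 at Net1, Calml3, Cbs, Llgl1, Dlx1 and Fzd2 while the LBN circles stay close together, and the LBN circles move at Pik3cd, Bmf, Slit3, Kalrn and Dock6.

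The 5 largest differences in percentage points in each direction were at Net1, Calml3, Kalrn and Slit3, given above, and at 6 DMRs without a gene name. The largest was at chr20:49999725-49999726, at 100.0%, 67.1%, 89.1%, 100.0% and 67.3% in LBN2, LBN3, LBN4, LBN9 and LBN12 and 31.7% through 52.3% to 75.8% in controls, a mean difference of 33.3 percentage points. LBN3 and LBN12 overlapped with the controls there, and the 2 values at 100% raise its log-odds difference to 3.56. The DMR at chr8:71884966-71884977 was at 83.9%, 70.8%, 70.7%, 81.8% and 88.3% in LBN and 25% through 52.6% to 64.4% in controls, without overlap. Among lower DMRs, chr4:120021756-120021840 was at 35.9%, 35.01%, 37.6%, 37.9% and 17.7% in LBN and 49.3% through 61.4% to 67.1% in controls. The DMRs at chr2:251680464-251680465 and chr10:96476503-96476504 were 26.4 and 25.8 percentage points lower in LBN, and the DMR at chr12:13837773-13837774 was 28.3 higher and lost its call when samples were centred (limma adjusted p = 0.0518).

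Homeobox factors, which set positional identity in the embryo, had 24 DMRs at 20 genes, of which 5 were lower and 0 higher in LBN at a limma adjusted p under 0.05, beside 11.1% lower and 5.68% higher among all DMRs with a gene name. The difference was below 0 at 20 of the 24, and the median was −0.54 on the log-odds scale, against −0.02 over the 458 DMRs with a gene name, of which 51.3% were below 0. The mean level of the 24 DMRs was 16.3%, 14.6%, 18.1%, 14.8% and 12.4% in LBN2, LBN3, LBN4, LBN9 and LBN12, and 19% through 20.6% to 24.7% in controls. At P2 it ran from 12.3% to 20.5% in LBN and 13.2% to 18.0% in controls, and in cohort 2 at P10 from 17.5% to 24.3% and 18.0% to 23.6%. Beside Dlx1, the lower members were Dlx4, at 9.40% ± 3.49 in LBN and 20.2% ± 5.42 in controls, Irx2 at 10.5% ± 3.79 and 20.1% ± 4.87, Otx1 at 7.64% ± 2.31 and 18.7% ± 10.4, and Pax9 at 6.37% ± 1.68 and 16.8% ± 10.1. The groups did not overlap at Dlx1 and Irx2. Another exonic and an intergenic DMR of Irx2 had differences below 0 and did not pass (limma adjusted p = 0.0664 and 0.344). Nor did an intronic DMR of Dlx1, also below 0 (limma adjusted p = 0.0765). Hoxb5, Hoxd4, Lhx6 and Meis1 had differences of −0.13 to 0.15, with adjusted p values of 0.776 or more.

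Other developmental factors, of the T-box, GATA, forkhead and similar families, had 35 DMRs at 25 genes, of which 8 were lower and 0 higher in LBN, again beside 11.1% and 5.68% of all DMRs with a gene name. The difference was below 0 at 29 of 35, and the median was −0.53. The mean level was 25%, 25.7%, 26.1%, 24.5% and 22.7% in the LBN pups and 27.5% through 29.9% to 32.9% in controls, and at P2 the groups overlapped, at 21.6% to 26.6% and 22.3% to 27.4%. In cohort 2 at P10 the range was 25.1% to 33.4% in LBN and 26.7% to 36.4% in controls. Tbx3, a factor of limb and gland development, was at 15.3% ± 7.84 in LBN and 33.2% ± 9.39 in controls. Foxc1, a factor of eye and vessel development, was at 13.8% ± 2.98 and 28.4% ± 7.20, and Casz1, a zinc finger factor, at 10.9% ± 4.597 and 29.2% ± 15.7. Gata3, a factor of T cells and of skin, was at 4.82% ± 3.10 and 11.2% ± 3.08 at an exonic DMR. An intergenic DMR of Gata3 was at 7.13% in LBN and 7.64% in controls and did not pass (limma adjusted p = 0.968). The other DMRs of Tbx3 and Casz1 had differences below 0 and did not pass. Foxo6, Tbx2 and a pair of Skor1 DMRs 121 bp apart made up the rest.

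The Wnt, BMP, TGF-beta and FGF list held ligands, receptors and modulators, with 19 DMRs at 15 genes, of which 5 were lower and 1 higher, beside the same 11.1% and 5.68%. Its median was −0.57, and its mean level was 30.6%, 32.8%, 31.6%, 31.7% and 30.5% in the LBN pups and 34.1% through 37.1% to 38.2% in controls. At P2 it ran from 30.8% to 34.3% in LBN and 31.4% to 36.0% in controls, and in cohort 2 at P10 from 25.6% to 34.2% and 30.1% to 38.3%. Among ligands, Bmp8b was at 53.4% ± 15.02 in LBN and 76.6% ± 6.62 in controls, Gdnf at 18.9% ± 7.78 and 37.8% ± 9.58, and Wnt3 at 13.1% ± 3.84 and 25.7% ± 6.54. Gdnf was at 10.8% ± 6.38 in controls and 9.78% ± 2.84 in LBN at P2. Among receptors, Fzd2 was lower, as given above, and Tgfbr3, the co-receptor betaglycan, was higher, at 9.09%, 42.0%, 24.5%, 11.4% and 37.1% in LBN and 1.33% through 6.71% to 15.03% in controls. The groups overlapped at Tgfbr3, with LBN2 and LBN9 among the controls.

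**Figure D5:**
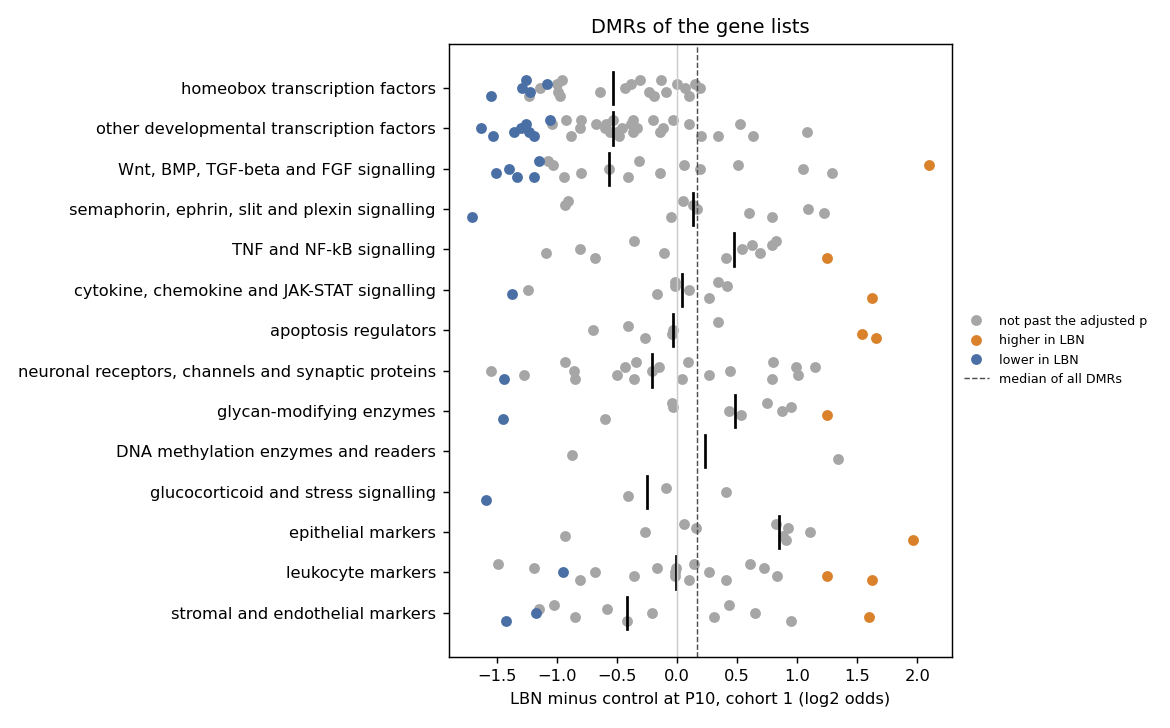
Each point is a DMR of a gene list, with its LBN minus control difference at P10 in cohort 1 on the log2 odds scale; coloured points passed the limma adjusted p, black ticks are list medians and the dashed line is the median of all 3417 DMRs, +0.17. The homeobox, other developmental and Wnt lists lie mostly below 0, and the epithelial list mostly above it.

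These 3 lists had 4, 6 and 6 DMRs above 0. Centring each sample on its median shifts every DMR by the same amount, and their medians were then −0.90, −0.89 and −0.94. This shift holds for all lists and says nothing about these in particular. The lists were drawn up with earlier results of these data known, and they share samples. Their DMRs had been picked by the study for separating ages in controls, or LBN from control, in these same pups. The paper reports that its picks with less methylation in LBN were enriched in homeobox genes. The counts and medians of these lists thus follow in part from that choice. They describe these pups and are no independent evidence of direction.

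The immune and apoptosis lists, and all lists after them, are set beside 16.8% called among all DMRs with a gene name, 5.68% higher and 11.1% lower. The TNF and NF-kB list had 12 DMRs, of which 1 was higher: Tnfrsf1b, a TNF receptor, at 11.8%, 29.9%, 26.0%, 21.4% and 35.7% in LBN and 4.41% through 13.01% to 16.5% in controls. At P2 it was at 39.8% ± 8.98 in controls and 28.3% ± 9.79 in LBN. Centred on the sample median, Tnfrsf1b lost its call (limma adjusted p = 0.111), and Icam1 and a DMR of Tnfaip2 passed as lower (0.034 and 0.0393). The cytokine, chemokine and JAK-STAT list had 10 DMRs, with Pik3cd higher and Osm, a cytokine of the IL-6 family, lower at 18.1% ± 8.32 in LBN and 35.1% ± 11.01 in controls. The apoptosis list had 8, with Bmf and Pdcd6ip higher. Another intronic DMR of Bmf was at 36.9% in LBN and 48.5% in controls and did not pass (limma adjusted p = 0.135).

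In the semaphorin, ephrin, slit and plexin list 1 of 11 was lower, Slit3, and none was higher (limma). Centring, the same shift for every DMR, turned its median from 0.13 to −0.24. It turned that of the cytokine list from 0.04 to −0.33, and that of the 2 DNA methylation enzymes from 0.23 to −0.13. Of the glycan-modifying enzymes 1 of 10 was higher, the mannosidase Man1c1 at 67.3% ± 8.64 in LBN and 46.7% ± 10.2 in controls, and 1 was lower, the glycosyltransferase Extl1 at 5.93% ± 3.03 and 16.0% ± 6.65. Man1c1 lost its call when samples were centred (adjusted p = 0.087).

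Among glucocorticoid and stress genes, 1 of 4 DMRs was lower. Sgk1, a kinase that glucocorticoids induce, was at 26.2%, 23.9%, 31.5%, 24.6% and 10.3% in LBN and 25% through 43.7% to 75% in controls (intron, chr1:24207835-24207836, difference −1.59, standard error 0.48, limma adjusted p = 0.0434). The controls spread over 50 percentage points and overlapped with the LBN pups. In cohort 2 Sgk1 was at 36.98% ± 8.29 in controls and 40.45% ± 14.3 in LBN at P10. At P2 of cohort 2, before any cage was assigned, it was at 72.2% ± 7.09 and 45.1% ± 7.44. Neither DMR of the DNA methylation enzymes passed: Tet3, which oxidizes methylated cytosine, was at 33.8% ± 12.2 in LBN and 17.4% ± 8.79 in controls (limma adjusted p = 0.0514), and Dnmt3a, which sets new methylation, was at 13.2% ± 3.95 and 22.5% ± 8.36 (adjusted p = 0.095). Centred on the sample median, Dnmt3a passed the threshold (adjusted p = 0.0436).

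Markers of the cells a cheek swab can hold were read the same way. The epithelial list had 10 DMRs, of which 1 was higher, Calml3, and 0 lower, beside 5.68% higher and 11.1% lower among all DMRs with a gene name. Its median was 0.85 (0.49 when centred), and 8 of 10 were above 0, where 223 of the 458 DMRs with a gene name were above 0. Its mean level was 43.4%, 39.4%, 39.5%, 46.8% and 47.7% in the LBN pups and 27.6% through 36.0% to 39.7% in controls, and C6 and C9 had the lowest, at 27.7% and 27.6%. At P2 the range was 33.9% to 51.6% in LBN and 38.6% to 47.8% in controls. In cohort 2 at P10 it was 17.5% to 23.7% in LBN and 16.7% to 24.0% in controls. Itga6, Kazn, Dsc3 and Krt42 had differences of 0.88 to 1.11 with adjusted p values from 0.0705 to 0.144. Epha2 had a difference of −0.93 (adjusted p = 0.0703) and passed as lower when samples were centred (limma adjusted p = 0.0336), and Aqp3, Krt75 and Epcam had differences of −0.27, 0.16 and 0.06. The leukocyte list had 19 DMRs, with Pik3cd and Tnfrsf1b higher and Wipf1, a partner of WASP, lower at an intergenic DMR. An exonic DMR of Wipf1 went the other way, at 62.5% in LBN and 48.5% in controls, and did not pass (limma adjusted p = 0.13). The mean level of the list was 32.3% to 43.1% in LBN and 33.7% to 43.2% in controls. The stromal and endothelial list had 13, with Heg1 higher and a pair of Tnxb DMRs, of the matrix protein tenascin-X, lower, and its mean level was 31.2% to 35.5% and 29.5% to 39.3%. Centred, Heg1 lost its call (limma adjusted p = 0.0797), and 4 DMRs of this list were lower, the pair of Tnxb, another of Tnxb and Itga10. The methylation of a marker gene gives no share of its cells, DMRs of the defining markers Krt5, Krt14 and Ptprc were not among the named ones, and the part of the cell mix in the differences above was not tested.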

How the data were processed

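Per the labels and methods, buccal DNA was cut with MspI and made into RRBS libraries. The authors trimmed reads with Trim Galore 0.4.3, aligned them to rn6 with Bismark 0.16.3, kept CpGs with more than 10 reads, called P2 against P10 within each pup, and merged CpGs within 100 bp into DMRs. What was deposited are methylation levels in percent, before correction for cohort; read counts are not given with them, so precision per value is unknown. No 2 samples held identical values. The members and gene lists were chosen with earlier results of these data known.

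Levels were compared with limma 3.58.1 (R 4.3.3, lmFit, eBayes) on log2((percent + 1)/(100 − percent + 1)), two-sided, Benjamini-Hochberg at 0.05 over 3417 DMRs. The fit was tested on simulated data with planted differences. Each simulated DMR was drawn independently, without the shared axis of the real samples, so the simulation gives no rate of false calls for them. Single values were compared by exact permutation (numpy 2.4.6, pandas 2.3.3, scipy 1.17.1, Python 3.11.15). Named DMRs were, among those past 0.05 with a gene name, the 10 smallest p in each direction; the 5 largest differences in each direction of all called; and up to 4 further called members per list of 14, or the 2 smallest p where none was called. Neighbours, promoters and single list members were added after their values were seen. Alternatives were other scales, pseudocounts, filters, centring, covariates, variance models, blocks, wider fits and each pup left out. Gene ontology was not analysed here, and 1 named DMR is not reported here.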

Additional observations from a re-analysis of the deposited data

Results flagged for a closer look

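Of 110 groups of values tested for a sample far from the others, 5 had one, and chance gives about 1 in 20. At the intergenic Wipf1 DMR, C9 was at 51.4%, and the other controls lay between 38.5% and 42.9%. LBN12 was at 17.7% at the DMR on chr4:120021756-120021840, where the other LBN pups lay between 35.01% and 37.9%. LBN12 was at 73.9% at the Pik3cd DMR, and the other LBN pups lay between 45.4% and 52.7%. At the Creld1 promoter, LBN4 was at 9.63%, and the other LBN pups lay between 2.38% and 3.39%. LBN3 was at 10.1% at the Gata3 DMR, against 2.27% to 4.46% in the others. No test of a difference between cohorts passed its threshold.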

How the results depend on the processing

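The count of 409 DMRs at P10 in cohort 1 moved by more than 1.5 times under these settings: 15 with log2(percent + 1), 265 with a pseudocount of 0.1, and 0 with the sample mean as a covariate (95 at an unadjusted p under 0.05) or with P2 and P10 samples in 1 fit (1067). With each pup left out in turn it ran from 0 to 1151, and without C6 and C9 together, a setting chosen after seeing the data, it was 0. The cause was not tested. Under the other settings it lay between 311 and 490.

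With the pup number as a replicate block the count was 0 (542 at an unadjusted p under 0.05). Same-numbered pups deviated together at r = 0.0729, −0.382, −0.404 and 0.177, so the numbers were taken as names only.

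The mean level difference, 2.65 percentage points, ran from 2.04 to 3.002 with a pup left out, always at an exact permutation p under 0.05. The first component difference ran from 38.1 to 52.4, and was 38.2 without LBN12. No named DMR changed direction under any setting tried. The counts of 0 at P2, in cohort 2 and for the difference between cohorts stayed at 0 in limma under every alternative run for them, of which those at P2 and in cohort 2 were added after seeing the data. Read depth, sex, dam and cage are not given with the samples, so no other coverage minimum was tried.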
